A study of Mus musculus with 14 samples.

Results

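The genes of mouse chromosome 14 were followed in order of position in Lmo2-driven T-cell leukemia (T-ALL), to see whether RNA along the chromosome lay above or below that of healthy thymus. A gene was included when it lay on chromosome 14 and had a mean level of at least 3 log2 CPM (CPM are counts scaled to the library total) over all 14 libraries. Segments of the T-cell receptor alpha and delta loci (Tra and Trd) were left out by name, and so were 6 further genes. This gave 362 genes of the 1797 chromosome 14 rows and of the 46946 rows of the count table, and all 362 passed the filter on low counts. The rule used the level and the position, not a difference between tumors and WT, but the members were chosen with earlier results of these data known. The members nearest the limit were Homez at 3.02 and Cgrrf1 at 3.04 log2 CPM inside it, and Thrb at 2.94 and Stab1 at 2.94 outside. Because 10 of the 14 libraries are tumors, the mean leans toward them: 16 members had a WT mean under the limit and 4 a tumor mean under it. Of the members tested by name below, Ube2e2 and Abhd4 passed only through their tumor level, and Tsc22d1 and Khnyn only through their WT level, so the direction of these 4 is partly set by the limit.

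All 14 libraries were non-stranded RNA-seq of total RNA from thymus of C57BL/6;CBA mice. Rosa26-Lmo2+Sca1-Cre (n = 3, 9 months) carries Lmo2 at the Rosa26 locus, switched on by Cre from the Sca1 promoter of stem and progenitor cells and then kept on. Sca1-Lmo2 (n = 4, of 7, 7, 8 and 8 months for replicates 1 to 4) carries Lmo2 under the Sca1 promoter itself. Cre was active from pro-B cells on in Rosa26-Lmo2+Mb1-Cre (n = 2, 20 months). It was active in germinal center B cells in Rosa26-Lmo2+Aid-Cre (n = 1, 22 months), whose mice were immunized with sheep red blood cells. WT thymus (n = 4, 4 months) was the control, so age and genotype cannot be told apart in any comparison with WT. The labels do not say whether the libraries of a group came from separate animals, so p-values measure the spread between these libraries only.

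Chromosome 14 holds the Tra/Trd locus, which thymocytes cut and rejoin by V(D)J recombination, so a break at this locus is part of normal T-cell development. Leukemic cells can gain or lose whole chromosomes or arms, and the RNA of many genes on a gained chromosome then tends to rise together in proportion to the copies. For scale, 3 copies against 2 would give a log2 ratio of 0.58 if RNA followed copy number exactly. DNA copy number was not analysed here, and RNA level alone cannot tell a copy change from other causes of a change in level. In bulk thymus, fewer cells of a type and less RNA per cell cannot be told apart either.

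The measured course of Mb1-Cre replicate 2 had its largest step at the Tra/Trd segments (chr14:52427928-54224206, mm10/GRCm38). Smaller changes near them in other libraries are given below. The promoters of 4 members close to the segments are shown because they mark either side of them. These are the 250 bases before each start site from RefSeq (GRCm38.p6), 5′ to 3′ on the gene's own strand, with capitals for CCAAT (the letters of NF-Y sites), CCGGAA (an ETS-type core) and CACGTG (an E-box) on either strand. Hnrnpc, an RNA-binding protein of nascent transcripts, and Supt16, a subunit of the FACT histone chaperone, lie before the segments. Oxa1l, which inserts proteins into the inner mitochondrial membrane, and Prmt5, an arginine methyltransferase, lie after them.
Hnrnpc, chr14:52104022-52104271, minus strand: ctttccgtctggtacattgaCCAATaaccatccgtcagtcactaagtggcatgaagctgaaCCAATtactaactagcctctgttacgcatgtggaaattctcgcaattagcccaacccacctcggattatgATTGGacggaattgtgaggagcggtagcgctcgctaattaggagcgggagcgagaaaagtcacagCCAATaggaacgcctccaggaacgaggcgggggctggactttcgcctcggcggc
Supt16, chr14:52197240-52197489, minus strand: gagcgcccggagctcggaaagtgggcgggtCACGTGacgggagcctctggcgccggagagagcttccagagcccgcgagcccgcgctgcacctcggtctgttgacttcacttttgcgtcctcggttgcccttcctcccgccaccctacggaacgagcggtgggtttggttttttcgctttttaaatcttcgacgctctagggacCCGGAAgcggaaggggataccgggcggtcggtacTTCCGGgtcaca
Oxa1l, chr14:54360591-54360840, plus strand: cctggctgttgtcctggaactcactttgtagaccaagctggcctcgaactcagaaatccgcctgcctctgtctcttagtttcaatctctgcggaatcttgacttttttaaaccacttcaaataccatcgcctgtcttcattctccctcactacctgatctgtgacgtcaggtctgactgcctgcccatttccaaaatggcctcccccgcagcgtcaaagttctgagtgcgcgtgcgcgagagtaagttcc
Prmt5, chr14:54517471-54517720, minus strand: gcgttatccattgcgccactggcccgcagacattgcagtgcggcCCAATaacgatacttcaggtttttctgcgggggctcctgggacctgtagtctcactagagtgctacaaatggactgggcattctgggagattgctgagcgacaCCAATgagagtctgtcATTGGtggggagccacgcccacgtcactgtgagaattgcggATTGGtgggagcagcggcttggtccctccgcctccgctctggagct
Hnrnpc and Prmt5 each held 4 CCAAT matches, Supt16 held 1 CACGTG and 2 CCGGAA matches, and Oxa1l held 0 of the 3 motifs. Over all 32851 RefSeq promoters of the same length, 33.8% held CCAAT, 12% CCGGAA and 6.02% CACGTG. No match overlapped a match of another motif in these windows. A match is a description of the letters only. By symbol, 241 of the 362 members had a promoter in the table.

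Total counts ranged from 42985130 to 47667663 per library. Lmo2 stood at 1.62 to 4.42 CPM in WT, 5.82 to 10.1 in Rosa26-Lmo2+Sca1-Cre, 10.2 to 17.5 in Sca1-Lmo2, 3.95 and 6.97 for Mb1-Cre, and 22.1 for Aid-Cre, so the Mb1-Cre replicate 1 library lay inside the WT range. T-lineage markers summed to 3484 to 7772 CPM in every library, B-cell markers to 7.83 to 89.0 CPM. Sca1-Lmo2 replicates 1 and 3 shared the most abundant segment in 4 of 4 receptor families (Trav3n-3, Traj2, Trbv5 and Trbj2-1), whereas every other pair of tumor libraries shared at most 1 of 4. Trbv5 took 82.3% and 86.3% of the Trbv counts in them. They had the highest rank correlation of their group (Spearman's rho 0.966 over 17087 genes, a description), although their counts differed beyond sampling noise and the labels give them different ages. Whether they come from 1 tumor was not tested. The numbers of called members and some named genes of Sca1-Lmo2 are given below also with their counts summed into 1 library. The role lists, the shares without overlap between libraries and the remaining named genes treat them as separate libraries, so their spread may be understated there.

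In each library the log2 CPM of every member was set against the WT mean (each WT library against the other 3) and centred on the 9758 genes of the 18 other autosomes at the same level limit, so that 0 means the same shift as the rest of the autosomes. The median over the 362 members was 0.61 in the Aid-Cre library, 0.68 and 0.99 in replicates 1 and 2 of Mb1-Cre, and 0.62, 0.18, 0.50 and 0.01 in Sca1-Lmo2 replicates 1 to 4. It was 0.07, 0.14 and 0.03 in the 3 libraries of Rosa26-Lmo2+Sca1-Cre and −0.06, −0.04, 0.02 and 0.08 in the WT libraries. Thus 5 of the 10 tumor libraries lay at 0.50 or above, the 3 Rosa26-Lmo2+Sca1-Cre libraries and Sca1-Lmo2 replicate 4 lay at or below 0.14, and Sca1-Lmo2 replicate 2 lay between. Since the pair of Sca1-Lmo2 libraries above 0.50 is the pair with shared receptor segments, the 5 libraries hold 4 different sets of leading segments. As linear ratios these medians were 1.53 (Aid-Cre), 1.60 and 1.99 (Mb1-Cre) and 1.53 and 1.42 (Sca1-Lmo2 replicates 1 and 3).

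Chromosome 14 had the highest median of the 19 autosomes in the Aid-Cre library, in both Mb1-Cre libraries and in Sca1-Lmo2 replicate 1, and the second highest, after chromosome 15, in Sca1-Lmo2 replicate 3. It was also first in Sca1-Lmo2 replicate 2 (0.18) and in WT replicate 4 (0.08), where all autosomes lay close together, so rank alone does not set a library apart. Across the 18 other autosomes the medians of the tumor libraries ran from −0.40 (chromosome 16, Aid-Cre) to 0.58 (chromosome 15, Sca1-Lmo2 replicate 3). Chromosome 15 lay at 0.45 and 0.30 in the Mb1-Cre libraries, at 0.53, 0.04, 0.58 and 0.54 in Sca1-Lmo2 replicates 1 to 4, at 0.49 in Rosa26-Lmo2+Sca1-Cre replicate 2, at 0.01 and 0.02 in the other two libraries of that group and at −0.0021 in the Aid-Cre library. The Aid-Cre library was high on chromosome 14 alone of this pair, and Sca1-Lmo2 replicate 4 on chromosome 15 alone.

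**Figure D1:**
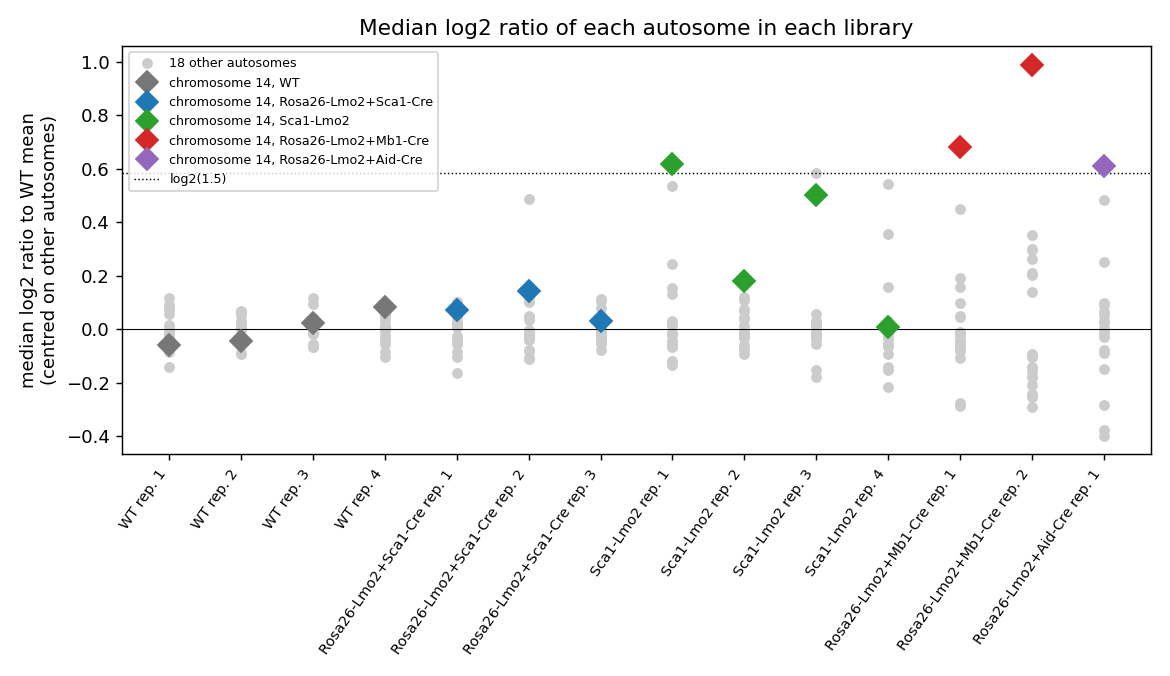
Median centred log2 ratio to the WT mean (y axis) of chromosome 14 (diamonds, colored by group) and of each of the 18 other autosomes (grey points) in every library (x axis). The dotted line marks log2(1.5) = 0.58. The diamonds of Aid-Cre (0.61), both Mb1-Cre libraries (0.68 and 0.99) and Sca1-Lmo2 replicates 1 and 3 (0.62 and 0.50) stand well above those of WT (−0.06 to 0.08).

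The shift was spread over most members rather than carried by a few. Members above 0 made up 82.3% in the Aid-Cre library, 77.3% and 76.8% in the Mb1-Cre libraries and 80.4% and 73.5% in Sca1-Lmo2 replicates 1 and 3, against 50.8% to 60.8% in the other 5 tumor libraries. Members above log2(1.5) were 51.1% in the Aid-Cre library, beside 19.8% of the genes on the other autosomes. In all 10 tumor libraries at once, 86 members (23.8%) lay above 0 and 12 (3.31%) below, where the other autosomes had 13.4% above and 14.4% below.

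Among themselves, members varied widely around these medians. The interquartile range of the members ran from 0.18 to 1.03 in the Aid-Cre library and from 0.03 to 1.92 in Mb1-Cre replicate 2. With genes divided into 3 classes of span, members exceeded other autosomal genes of the same class by 0.51 to 0.68 in the Aid-Cre library, 0.59 to 0.77 in Mb1-Cre replicate 1, 0.53 to 0.63 in Sca1-Lmo2 replicate 1 and 0.46 to 0.58 in replicate 3. In Mb1-Cre replicate 2 it was less even, with 0.53 in the shortest, 1.26 in the middle and 0.96 in the longest class.

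Cut into 10 Mb bins with at least 10 members, chromosome 14 gave 9 bins. A bin counted as shifted when its median was at least 0.3 away from 0 and outside the range of the 4 WT libraries, or, for a WT library, of the other 3. The Aid-Cre library had 8 of 9 bins shifted up and 0 down, Mb1-Cre replicate 1 had 7 up and 0 down, and Mb1-Cre replicate 2 had 6 up and 1 down. Sca1-Lmo2 replicates 1 and 3 each had 8 up and 0 down. By the same rule, between 9.38% and 21.0% of the 224 bins on the other autosomes were shifted up in these 5 libraries. In Mb1-Cre replicate 2, 19.6% of these other bins were shifted down.

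In the remaining tumor libraries the counts were small. The 3 Rosa26-Lmo2+Sca1-Cre libraries had 1, 1 and 2 bins up, Sca1-Lmo2 replicate 2 had 2 up and replicate 4 had 1 down. Of the 224 bins on the other autosomes, 7.14%, 12.5% and 7.59% were up in the Rosa26-Lmo2+Sca1-Cre libraries. In Sca1-Lmo2 replicate 2 this share was 2.23% up, and in replicate 4 it was 12.95% down. The 10 to 20 Mb bin of 19 members was up in all 3 Rosa26-Lmo2+Sca1-Cre libraries, with medians of 0.54, 1.06 and 0.37 against −0.19 to 0.14 in WT. This was not particular to that group. The bin was also up in Aid-Cre (0.42), both Mb1-Cre libraries (0.95 and 1.55) and Sca1-Lmo2 replicates 1 and 3 (0.50 and 0.76). It was not up in Sca1-Lmo2 replicates 2 and 4 (0.07 and 0.09). Rosa26-Lmo2+Sca1-Cre replicate 3 had 0 shifted bins with 5 Mb or 20 Mb bins. WT replicate 1 had 1 bin down and the other WT libraries none.

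The course along the chromosome was drawn as a running median over 25 neighboring members. In the Aid-Cre library it stayed above 0 at all 338 positions, between 0.16 and 1.03, and in Mb1-Cre replicate 1 between 0.25 and 1.18. Sca1-Lmo2 replicates 1 and 3 likewise stayed above 0 throughout, at 0.07 to 1.08 and 0.14 to 1.10. In WT the running median kept within −0.27 and 0.28, and in the Rosa26-Lmo2+Sca1-Cre libraries it was above 0 at 61.0% to 72.5% of positions. Mb1-Cre replicate 2 ran from −0.16 to 2.24. Its highest values lay before the Tra/Trd segments, but it also rose after them, to 0.86 near Ptk2b and 1.03 near Akap11. Its median in the 60 to 70 Mb bin was 0.753, beside 0.754 in the Aid-Cre library. Smaller changes just after the segments occurred in other libraries too. The running median of Sca1-Lmo2 replicate 1 went from 0.72 at Abhd4 to 0.07 at Ngdn. In Rosa26-Lmo2+Sca1-Cre replicate 1 it went from −0.15 at Abhd4 to 0.48 at Cdh24.

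**Figure D2:**
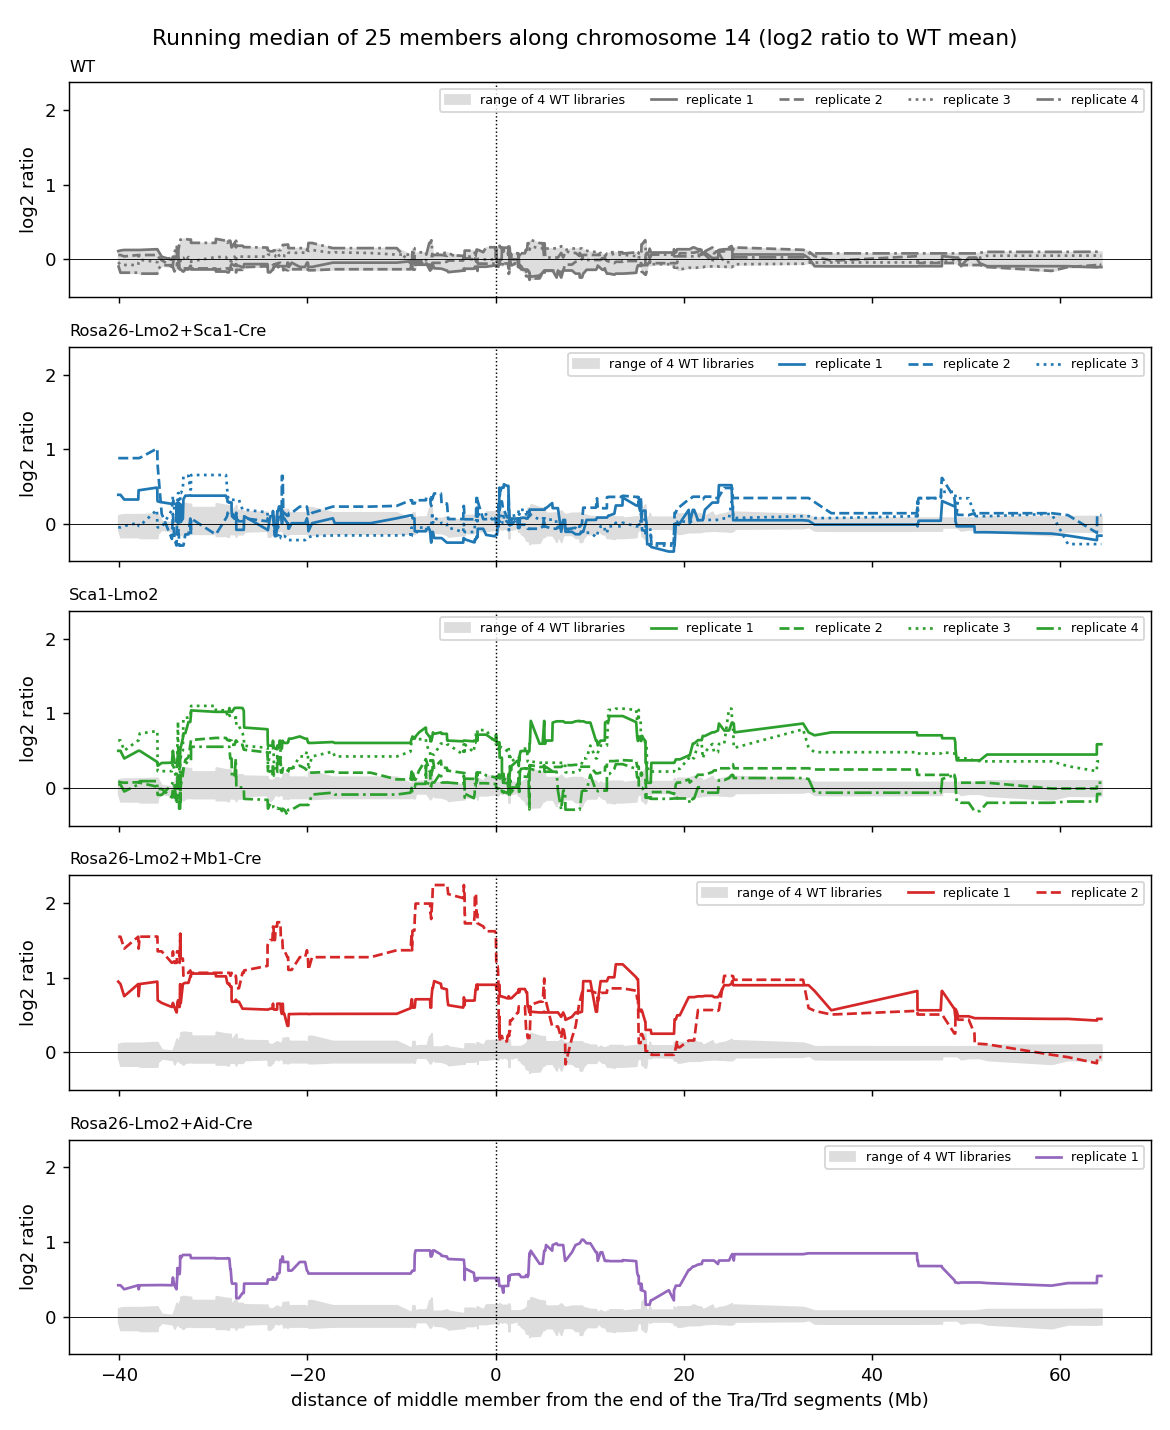
Running median of 25 members (y axis, centred log2 ratio to the WT mean) against the distance of the middle member from the end of the Tra/Trd segments (x axis, Mb). There is 1 panel for each group, with 1 line for each library and the range of the 4 WT libraries in grey. Mb1-Cre replicate 2 (dashed red) falls at distance 0, from a median of 1.55 over the members before the segments to 0.28 after them. The same medians were 0.70 and 0.57 in replicate 1 and 0.60 and 0.66 in Aid-Cre. Smaller local changes just after distance 0 occur in other libraries.

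Members were therefore also taken apart at the Tra/Trd segments, a split chosen after the values were seen, with 166 members before the segments (toward the centromere), 193 after them and 3 inside their span left out. In Mb1-Cre replicate 2 the median was 1.55 before and 0.28 after, a difference of 1.27. Each of the other 13 libraries differed by at most 0.13 between the sides, with 0.70 and 0.57 in Mb1-Cre replicate 1, 0.60 and 0.66 in the Aid-Cre library, 0.64 and 0.59 in Sca1-Lmo2 replicate 1 and 0.54 and 0.46 in replicate 3.

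The position of the largest step was also searched, as the median of 25 members before a point minus that of the 25 after it. In Mb1-Cre replicate 2 the largest of 313 steps was 1.98, from 2.12 to 0.15, inside the Tra/Trd span between Rps19-ps1 (ending at chr14:53214167) and Gm43434 (starting at chr14:54128298), and 0.484% of the 8876 positions on other autosomes had a step at least as large. For replicate 2 minus replicate 1 of the same group the largest step was 1.62, between Mettl3 (ending at chr14:52305128) and Sall2 (starting at chr14:52311172), next to the first segment, and 0% of the positions on other autosomes reached it. In the other 13 libraries the largest step lay elsewhere on the chromosome. Its share of other positions at least as large ran up to 4.90% (Aid-Cre), and it was 0% in Sca1-Lmo2 replicate 2 too, whose largest step was a rise of 0.88 between Fut11 and Chchd1. In WT replicates 1 to 4 the share was 2.82%, 1.53%, 0.575% and 1.42%. Each share sets a largest step, found by search, against single positions, so a small share alone does not set a library apart.

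Replicate 2 exceeded replicate 1 in 145 of the 166 members before the segments (87.3%, median difference 0.90) and in 66 of the 193 after them (34.2%, median −0.22). On the other autosomes this share was 53.0%, with a median of 0.05. With 2 libraries the difference between the replicates has no replicate check of its own.

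**Figure D3:**
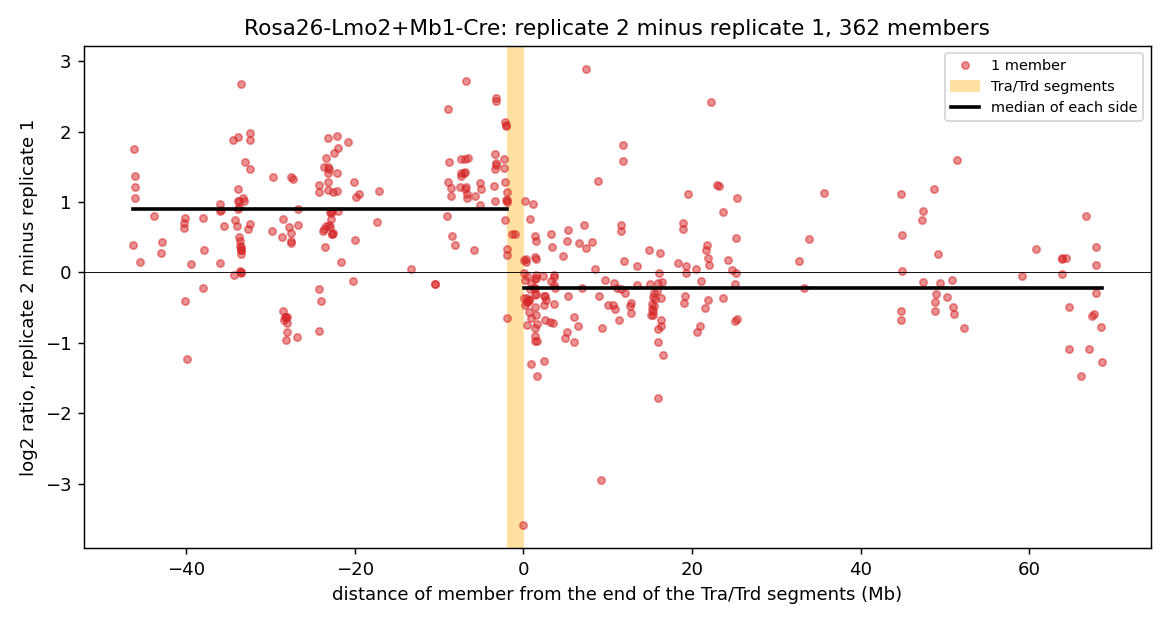
Log2 ratio of Rosa26-Lmo2+Mb1-Cre replicate 2 minus replicate 1 (y axis) for each of the 362 members against distance from the end of the Tra/Trd segments (x axis, Mb). The yellow band marks the segments and the black lines the medians, 0.90 before and −0.22 after.

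Of the members printed above by sequence, those before the segments showed this, and those after them differed little between the replicates. Hnrnpc (chr14:52073380-52104028) stood at 452, 540.1, 445 and 414 CPM in the WT libraries and at 570.2 and 1344 CPM in the Mb1-Cre libraries, so replicate 1 lay just above the highest WT library and replicate 2 far above it. Supt16 (chr14:52160419-52197239), whose span overlaps another gene's, stood at 132, 159, 166 and 166 CPM in WT and 337 and 1389 in Mb1-Cre, with 414 in the Aid-Cre library. Again replicate 2 was the highest of all 14 libraries. Beyond the segments, Oxa1l (chr14:54360841-54369673) stood at 64.6, 61.5, 50.8 and 47.5 CPM in WT and at 127 and 114 in Mb1-Cre, and Prmt5 (chr14:54507187-54517525) at 44.6, 59.1, 55.5 and 49.3 CPM in WT and 186 and 206 in Mb1-Cre. For both the Mb1-Cre replicates lay close to each other and above every WT library.

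Members on both sides ran against the median of their side, and these are examples. Before the segments, Tmem254a, Tmem254b and Tmem254c, near-identical copies that may share reads, were lower in replicate 2 than in replicate 1 (log2 ratios 1.07 against 1.70 for Tmem254a). After the segments, Trim13, a ubiquitin ligase (0.68 against −2.21), and Tsc22d1, a leucine zipper protein (−1.90 against −4.32), were higher in replicate 2. Blk, a Src-family kinase after the segments, was lower in replicate 2 by far more than the median of its side (−1.33 against 1.61). These members were chosen after their values were seen.

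The next question was how many members differed in each model from WT, tested with edgeR's quasi-likelihood test over all 17087 genes with Benjamini-Hochberg adjustment at 0.05, 1 model fitted to all 14 libraries. The comparisons share the 4 WT libraries. The Aid-Cre library, with 1 sample, had no test. Members are not independent replicates of a condition, since they share a chromosome and a library.

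In Rosa26-Lmo2+Mb1-Cre against WT, 169 members were higher and 15 lower, and 178 did not pass. Thus 50.8% of members were called, where 35.1% of all genes were, with 46.7% higher beside 19.7% of all genes and 4.14% lower beside 15.4%. Among all genes at the level limit of the members, 41.2% were called, 22.2% higher and 19.1% lower. The median log2 fold change of the members was 0.81, and −0.01 over all genes tested. Before the segments 97 of 166 were higher and 1 lower (median 1.12), and after them 70 of 193 were higher and 14 lower (median 0.39). Without replicate 2 the median was 0.65. That fit leaves only replicate 1, so its calls are not given here or for single genes below. With library totals in place of TMM scaling 99 were higher and 28 lower. The share of all genes called with library totals is not given, so this change cannot be read as particular to the members. Both Mb1-Cre libraries lay above all 4 WT libraries in 57.2% of members, against 30.9% of all genes tested.

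The lists by role are read beside the 19.7% of all genes higher and the 15.4% lower in this comparison. They hold only members, of which 46.7% were higher and 4.14% lower. The shares higher of cell division (50%), chromatin and repair (48.5%) and protein degradation (47.8%) were near that of all members. For these lists the rise is therefore not particular to the role. The mitochondrial and metabolic list had the largest share called in this comparison: 20 of 25 members rose, 1 fell and 4 did not pass, with a median of 1.77. Tkt, transketolase of the pentose phosphate pathway, stood at 137, 149.9, 129 and 100.01 CPM in WT and 554 and 1512 in Mb1-Cre (log2 fold change 3.002 ± 0.46, adjusted p = 0.0016). The levels were 594, 319, 668 and 247 CPM in Sca1-Lmo2, 308, 340.0 and 155 in Rosa26-Lmo2+Sca1-Cre and 306 in the Aid-Cre library, so every tumor library exceeded every WT library. Vdac2, a pore of the outer mitochondrial membrane, rose by 2.31 ± 0.34 (adjusted p = 0.0014), Mipep, a mitochondrial processing peptidase, by 1.81 ± 0.20 (adjusted p = 0.00053), and Pcca, a subunit of propionyl-CoA carboxylase, by 1.87 ± 0.28 (adjusted p = 0.0015), all as log2 fold changes. Chchd1, of the mitochondrial ribosome, stood at 89, 76.9, 52.5 and 37.1 CPM in WT and 234 and 1446 in Mb1-Cre (log2 fold change 3.72 ± 0.67, adjusted p = 0.0028). Its level was far higher in replicate 2. Without that library only replicate 1 would remain, so the call cannot be tested without it.

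Of the ribosome and RNA processing list, 20 of 34 rose and 0 fell by edgeR (median 1.04). Mrps16, of the small mitochondrial ribosome subunit, stood at 57.2, 48.1, 32.2 and 24 CPM in WT and 149 and 546 in Mb1-Cre (log2 fold change 3.10 ± 0.54, adjusted p = 0.0025). Rps24, a cytosolic ribosomal protein whose reads may be split with pseudogenes, rose by 3.12 ± 0.66 (adjusted p = 0.0056). Gtf2f2, a subunit of general transcription factor TFIIF, rose by 2.07 ± 0.30 (adjusted p = 0.0015). The calls of Mrps16 and Rps24 cannot be tested without replicate 2, when only replicate 1 would remain. Of the protein degradation list 11 of 23 rose and 2 fell (median 0.98), among them Psmd6, a regulatory proteasome subunit (log2 fold change 1.76 ± 0.27, adjusted p = 0.0015), Uchl3, a deubiquitinating enzyme (log2 fold change 2.23 ± 0.33, adjusted p = 0.0015), and Ube2e2, a ubiquitin-conjugating enzyme (log2 fold change 2.5 ± 0.35, adjusted p = 0.0012). Ube2e2 passed the level limit only through its tumor level, so its rise is partly set by the rule. Psmc6, a proteasome ATPase before the segments, stood at 108, 108, 106 and 92.4 CPM in WT and 189 and 915 in Mb1-Cre, where replicate 2 was again the highest of all libraries.

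Cell division genes rose in 8 of 16 members and fell in 0 by edgeR (median 1.17). In the lists in which 0 fell, that count was also 0 at an unadjusted p under 0.05, with DESeq2 and with limma-voom. Dlgap5, a spindle protein, stood at 25.9, 50.5, 52.4 and 27.4 CPM in WT and 116 and 260.1 in Mb1-Cre (log2 fold change 2.27 ± 0.41, adjusted p = 0.003). Cdca2, a chromatin protein of mitosis, rose by 1.56 ± 0.29 (adjusted p = 0.0033), and Wdhd1, a replication factor, by 2.53 ± 0.48 (adjusted p = 0.0035). The calls of Dlgap5 and Wdhd1 rest on both replicates and cannot be tested without replicate 2, when only replicate 1 would remain.

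The chromatin and repair list had 16 of 33 higher, 3 lower and 14 not called (median 0.53). Apex1, an endonuclease of base excision repair, stood at 31.3, 42.5, 33.3 and 24.4 CPM in WT and 172 and 923 in Mb1-Cre (log2 fold change 4.06 ± 0.62, adjusted p = 0.0016). Its span overlaps Tmem55b, a lysosomal membrane protein that rose with it (by 3.34 ± 0.56), and non-stranded reads of the overlap cannot be told apart. Rnaseh2b, a ribonuclease H2 subunit, rose by 2.57 ± 0.38 (adjusted p = 0.0015), and Pinx1, a nucleolar protein that binds telomerase, by 1.92 ± 0.25 (adjusted p = 0.00087). Zmym5, a zinc finger protein, and Stk24, a kinase outside the list, fell by 1.27 and 1.28 on the log2 scale. Neither call can be tested without replicate 2, when only replicate 1 would remain.

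Of the immune signalling genes 4 of 22 rose, 2 fell and 16 did not pass (median 0.15), and the 18.2% higher was near the 19.7% of all genes. Ptk2b, a tyrosine kinase of the focal adhesion kinase family, stood at 159.6, 151, 151 and 161 CPM in WT and 52 and 56.4 in Mb1-Cre (log2 fold change −1.52 ± 0.40, adjusted p = 0.013). Its call cannot be tested without either replicate, since only the other would remain. Lgals3, galectin-3, a lectin known from macrophages and epithelium, stood at 22, 9.43, 13.5 and 11.7 CPM in WT and 40.0 and 256 in Mb1-Cre (log2 fold change 3.39 ± 0.70, adjusted p = 0.0052). Its level was far higher in replicate 2, and the call cannot be tested without that library. Of the list known from myeloid, stromal or epithelial cells 4 of 7 members rose and 0 fell (median 1.35). Over the 10 myeloid markers, found as 11 rows by symbol, the summed level was 108 to 200.1 CPM in WT and 259 and 984 CPM in the Mb1-Cre libraries, with no marker at 0 and Lyz2 the highest. Stromal and endothelial markers summed to 91.0 and 100.1 CPM against 118 to 126 in WT. Thymic epithelial markers, with Ctsl the highest in both and in WT, summed to 93.5 and 206 against 592 to 1115. The part of these cells in the result was not tested.

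In Sca1-Lmo2 against WT, 80 members were higher and 10 lower, and 272 did not pass. The share called was 24.9%, close to the 22.3% of all genes, but its direction was not even: 22.1% of members were higher beside 12.1% of all genes, and 2.76% lower beside 10.2%. Among all genes at the level limit of the members, 22.0% were called, 12.8% higher and 9.21% lower. The uneven direction was not particular to chromosome 14: of the chromosome 15 genes at that limit 25.1% were higher and 1.78% lower (median 0.51). The median log2 fold change was 0.39 over the members and 0.05 over all genes tested. With replicates 1 and 3 summed into 1 library, 43 members were higher and 4 lower, with a median of 0.31. With library totals in place of TMM scaling 38 were higher and 11 lower. Without replicate 1 the counts were 41 and 4, without replicate 3 they were 37 and 3, and without WT replicates 1 to 4 they were 40 and 4, 52 and 5, 48 and 3, and 42 and 3. For these other settings the share of all genes called is not given. The lower counts therefore cannot be read as particular to the members. All 4 tumor libraries lay above all WT libraries in 27.6% of members and below them in 5.80%, where all genes had 15.7% and 16.9%.

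The role lists hold only members, of which 22.1% were higher and 2.76% lower in this comparison. Beside the 12.1% of all genes higher and 10.2% lower in this comparison, 13 of 34 ribosome and RNA processing members rose and 0 fell (median 0.63), 10 of 25 metabolic members rose and 1 fell (median 0.70), and 5 of 16 cell division members rose and 0 fell (median 0.69). The chromatin and repair list had 5 of 33 higher and 0 lower (median 0.23), the protein degradation list 2 of 23 higher and 0 lower (median 0.44), and immune signalling 2 of 22 higher and 1 lower (median 0.21). Of the myeloid, stromal or epithelial list 0 of 7 passed in either direction by edgeR (median 0.19), also 0 at an unadjusted p under 0.05, with DESeq2 and with limma-voom. In the other lists in which 0 fell, 0 fell with DESeq2 and limma-voom too, and at an unadjusted p under 0.05 only 1 cell division member did. Myeloid markers summed to 83.03 to 169.6 CPM, beside 108 to 200.1 CPM in WT. Thymic epithelial markers, with Ctsl the highest in each of these libraries and in WT, summed to 82.2 to 157 CPM against 592 to 1115 in WT. Of the 10, 1 to 4 were at 0. Stromal and endothelial markers summed to 125 to 197 against 118 to 126. Their part in the result was not tested.

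The member with the largest rise was Adk, adenosine kinase (chr14:21052574-21448568), at 12.1, 15, 15.9 and 11.9 CPM in WT and 849, 35.6, 675 and 23.4 CPM in Sca1-Lmo2 replicates 1 to 4 (log2 fold change 4.85 ± 1.01, adjusted p = 0.0071). The level of replicates 1 and 3 was far above that of replicates 2 and 4, so the pair with shared receptor segments shared this too, and with the pair summed the fold change was 4.30 (adjusted p = 0.018). Tkt rose by 1.83 ± 0.40 (adjusted p = 0.009), Apex1 by 2.06 ± 0.53 (adjusted p = 0.017, and 0.051 and 0.055 without replicate 3 and without WT 4), and Chdh, a mitochondrial choline dehydrogenase, by 1.93 ± 0.41 (adjusted p = 0.008). Cacna1d, a calcium channel subunit whose span overlaps Chdh, rose by 1.78 ± 0.31 (adjusted p = 0.0034). Ggact, a cyclotransferase that overlaps Pcca, rose by 1.93 ± 0.32 (adjusted p = 0.0025).

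Abhd4, a lipid hydrolase that is the second member after the segments (chr14:54254188-54270637), stood at 3.1, 2.97, 3.46 and 4.04 CPM in WT and 18.7, 12.7, 17 and 14 CPM in Sca1-Lmo2 (log2 fold change 2.201 ± 0.42, adjusted p = 0.0047). It was 26.2, 4.56 and 13.5 CPM in Rosa26-Lmo2+Sca1-Cre, 12.3 and 11.9 in Mb1-Cre and 11.1 in the Aid-Cre library, with all WT levels under the limit for membership, so that its being higher in tumors is partly set by the rule. Prmt5 rose by 1.33 ± 0.25 (adjusted p = 0.0045), and Ipo5, a nuclear import receptor near the far end, stood at 71.4, 90.8, 100.4 and 86.1 CPM in WT and 342, 224, 234 and 143 in Sca1-Lmo2 (log2 fold change 1.43 ± 0.34, adjusted p = 0.011).

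Among the few that fell, Tsc22d1 stood at 37.2, 51.7, 34.5 and 44.7 CPM in WT and 3.81, 2.97, 3.34 and 11 CPM in Sca1-Lmo2 (log2 fold change −2.99 ± 0.66, adjusted p = 0.009), with the 4 tumor libraries all below the WT libraries. Tsc22d1 passed the level limit only through its WT level, so its fall is partly set by the rule. Slc25a37, mitoferrin, which carries iron into mitochondria, fell from 142, 135, 131 and 191 to 83.9, 91.2, 74.8 and 57.1 CPM (log2 fold change −0.96 ± 0.22, adjusted p = 0.011), and Lpar6, a lysophosphatidic acid receptor, had log2 fold change −0.76 ± 0.19, adjusted p = 0.014. Cdh24, a cadherin, stood at 46.4, 56.4, 57.3 and 73.9 CPM in WT and 13.2, 7.8, 10.8 and 43.1 in Sca1-Lmo2 (log2 fold change −1.64 ± 0.50, adjusted p = 0.034), but with the pair summed its adjusted p was 0.092, and leaving out 1 library gave 0.054 to 0.093 for each of the 4 WT libraries and for replicates 1 to 3. The calls of Rgcc, a cell cycle regulator, Mss51 and Ccdc66 were likewise lost with the pair summed (adjusted p = 0.079, 0.073 and 0.079).

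In Rosa26-Lmo2+Sca1-Cre against WT, 57 members were higher and 34 lower. This share of 25.1% lay close to the 26.9% of all genes, with 15.7% higher beside 16.5% and 9.39% lower beside 10.4%, and the median log2 fold change was 0.05 over the members and 0.06 over all genes tested. Among all genes at the level limit of the members, 27.9% were called, 15.1% higher and 12.8% lower. Before the segments 25 of 166 were higher and 13 lower, and after them 30 of 193 and 21. The count depended on single libraries: it was 45 without replicate 1, 49 without replicate 2, and 60, 32 and 26 without WT replicates 2, 3 and 4. Shares of all genes called without these libraries are not given, so this dependence cannot be read as particular to the members. With library totals in place of TMM scaling 25 members were higher and 76 lower, because the median of all other genes then moved from −0.02 to −0.42, while members minus other genes stayed at 0.07.

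Individual members nevertheless differed in both directions. Mir17hg (chr14:115042879-115046727), the host transcript of the miR-17-92 cluster, stood at 36.9, 40.3, 40.4 and 40.6 CPM in WT and 11.9, 19.1 and 7.8 CPM in Rosa26-Lmo2+Sca1-Cre (log2 fold change −1.61 ± 0.29, adjusted p = 0.0057). All 3 tumor libraries lay below WT, whereas the levels were 30.8, 26.5, 47.2 and 35.6 CPM in Sca1-Lmo2, 46 and 56 in Mb1-Cre and 52.8 in the Aid-Cre library. The host transcript is not a measure of the mature miRNAs, which act on messenger RNAs through their seed. The mature sequences of the cluster (RefSeq, GRCm38.p6, 5′ to 3′, seed bases 2 to 8 in capitals) show what this transcript carries.
mmu-miR-17-5p: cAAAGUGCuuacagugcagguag
mmu-miR-18a-5p: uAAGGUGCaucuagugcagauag
mmu-miR-19a-3p: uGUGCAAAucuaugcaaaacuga
mmu-miR-20a-5p: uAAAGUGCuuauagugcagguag
mmu-miR-19b-3p: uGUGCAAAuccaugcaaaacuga
mmu-miR-92a-3p: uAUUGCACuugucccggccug
Of the 6, miR-17-5p and miR-20a-5p shared the seed AAAGUGC, miR-19a-3p and miR-19b-3p shared GUGCAAA, and miR-18a-5p and miR-92a-3p had seeds of their own.

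Lpar6 fell from 64.1, 53.1, 55.8 and 61.8 to 17.6, 16.4 and 15.8 CPM (log2 fold change −1.82 ± 0.21, adjusted p = 0.00099), and Cdh24 from 46.4, 56.4, 57.3 and 73.9 to 4.06, 5.37 and 10.2 CPM (log2 fold change −3.15 ± 0.59, adjusted p = 0.0066). Prkcd, protein kinase C delta, had log2 fold change −0.93 ± 0.22, adjusted p = 0.013, and Ddhd1, a phospholipase, log2 fold change −1.70 ± 0.32, adjusted p = 0.007. The spans of Lpar6, Cdh24 and Ddhd1 overlap those of other genes, and non-stranded reads of an overlap cannot be told apart. Khnyn, an antiviral cofactor, and Nr1d2, a nuclear receptor of the circadian clock, had adjusted p values of 0.043 and 0.041. Neither was called when replicate 2, replicate 3, WT 3 or WT 4 was left out (adjusted p = 0.076 to 0.12), nor was Khnyn without replicate 1 (0.076) or Nr1d2 without WT 1 or WT 2 (0.057 and 0.055). Higher were Ube2e2 (log2 fold change 2.26 ± 0.33, adjusted p = 0.0026), Abhd4 (log2 fold change 2.12 ± 0.43, adjusted p = 0.0087), Rps24 (log2 fold change 2.33 ± 0.61, adjusted p = 0.019) and Lgals3 (log2 fold change 2.11 ± 0.64, adjusted p = 0.032). Ube2e2 and Abhd4 passed the level limit only through their tumor level, and Khnyn only through its WT level. Their directions are thus partly set by the rule. Rps24 was not called once replicate 1, replicate 2, WT 3 or WT 4 was dropped (adjusted p = 0.052 to 0.058). Lgals3 was not called without replicate 2 (log2 fold change 1.31, adjusted p = 0.16), without any 1 of WT 2, 3 and 4 (0.074 to 0.086), with limma-voom (0.054) and with library totals (0.054).

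The myeloid markers summed to 353 to 495 CPM in these 3 libraries, above the 108 to 200.1 CPM of WT, with no marker at 0, and Lgals3 was highest in replicate 2 (41.2, 113 and 29.1 CPM), which also had the highest myeloid sum. Thymic epithelial markers summed to 69.2 to 136 CPM against 592 to 1115 in WT. The highest of them was Ctsl in WT and in replicates 2 and 3, and Epcam in replicate 1. Erythroid markers summed to 603 to 4293 against 166 to 1402, highest in replicate 2. Stromal and endothelial markers summed to 123 to 182 against 118 to 126. Their part in the result was not tested. Beside the 16.5% of all genes higher and 10.4% lower, 6 of 34 ribosome and RNA processing members rose and 1 fell (median 0.28), 6 of 25 metabolic members rose and 2 fell (median 0.49), and 5 of 33 chromatin and repair members rose and 4 fell (median −0.32). The shares higher of the first and the last of these (17.6% and 15.2%) were near that of all genes. Of the immune signalling list 2 of 22 rose and 3 fell (median −0.30), of the cell division list 0 of 16 rose and 1 fell (median −0.13), and of the protein degradation list 4 of 23 rose and 2 fell (median 0.10). Of the myeloid, stromal or epithelial list 1 of 7 rose and 0 fell (median 0.62). The 0 cell division members that rose by edgeR were 1 at an unadjusted p under 0.05 and 0 with DESeq2 and limma-voom.

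**Figure D4:**
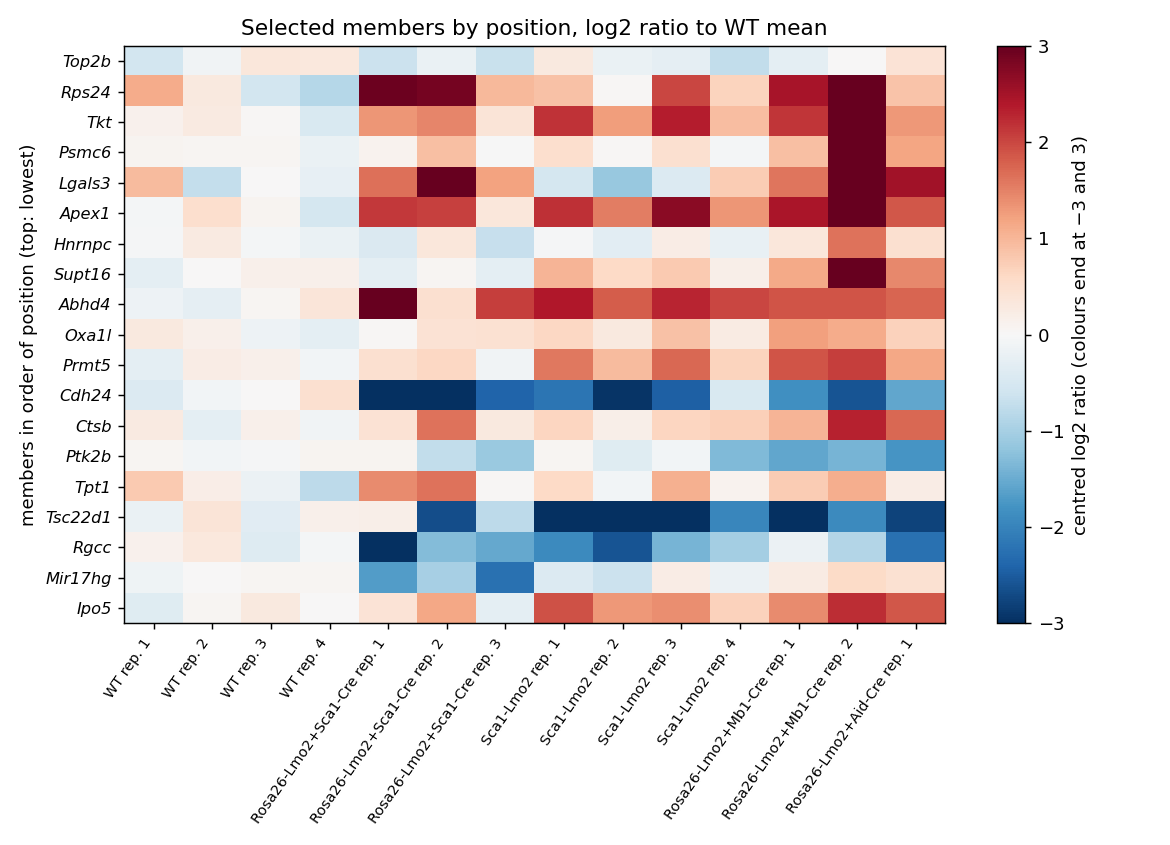
Centred log2 ratio to the WT mean (color, ending at −3 and 3) of 19 members in each of the 14 libraries. They are in order of position from top to bottom, and all but Tpt1 are described in the text. Cdh24 lies below 0 in every tumor library (−3.77 to −0.45), and Mir17hg lies at −1.68, −1.001 and −2.24 in the 3 Rosa26-Lmo2+Sca1-Cre libraries.

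Last, members among the 2 best expressed of their 10 Mb bin show the course from end to end in single genes. At the start, Pdhb, a pyruvate dehydrogenase subunit, stood at 109, 108, 92.5 and 103 CPM in WT, 201 and 503 in Mb1-Cre and 186 in the Aid-Cre library, and Rpp14, of ribonuclease P, at 21, 21, 17 and 20.8 CPM in WT, 45.3 and 148 in Mb1-Cre and 39.1 in the Aid-Cre library. In the next bin Top2b, topoisomerase II beta, did not follow this, at 257, 330.1, 403 and 399.7 CPM in WT and 272 and 329 in Mb1-Cre, while Rpl15, a cytosolic ribosomal protein, stood at 807, 739, 529.6 and 398 CPM in WT and 1943 and 3701 in Mb1-Cre. Gmfb, glia maturation factor beta, stood at 109.9, 101, 116 and 133 CPM in WT and 204 and 510.0 in Mb1-Cre. Up to the segments, then, replicate 2 was the higher of the pair in each of these genes.

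Beyond the segments this was no longer so. Acin1, a splicing-associated protein, stood at 295, 306, 289.8 and 318 CPM in WT and 326 and 235 in Mb1-Cre, and Spata13, a guanine nucleotide exchange factor, at 138, 127, 171 and 204 CPM in WT and 167 and 95.4 in Mb1-Cre. Itm2b, a membrane protein, stood at 308, 319, 302 and 258 CPM in WT and 409 and 313 in Mb1-Cre, and Dnajc3, a chaperone of the endoplasmic reticulum, at 119, 123, 125 and 124 CPM in WT and 162 and 111 in Mb1-Cre. In these 4 replicate 1 exceeded replicate 2. Ctsb, cathepsin B, a lysosomal protease, and Ipo5 had the reverse order, with 319.8 and 759.6 CPM for Ctsb and 225 and 380.3 CPM for Ipo5. Bora, a mitotic kinase activator, stood at 24.9, 34.8, 28.7 and 30.5 CPM in WT, 85.6 and 56.8 in Mb1-Cre, 64.3, 43.9, 54.8 and 39.3 in Sca1-Lmo2 and 77.4 in the Aid-Cre library.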

How the data were processed

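RNA of thymus was made into non-stranded TruSeq libraries and sequenced in pairs on an Illumina instrument. Reads were aligned to mm10/GRCm38 with TopHat2 2.1.0 (bcl2fastq is also named in the submitters' processing notes), and the authors deposited raw counts per gene, not normalized, in 1 table with all 14 libraries. The counting tool for this table is not given in the sources used here. The members and the gene lists were chosen with earlier results of these data known.

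Of 46948 lines, 2 identical repeats were dropped. The 17087 genes that reached 1 CPM in 3 or more of the 14 libraries were scaled by TMM and fitted with edgeR 4.0.16 (R 4.3.3), 1 mean per group, quasi-likelihood test, two-sided, and each log2 fold change is given ± its standard error (fold change over the root of F). DESeq2 1.42.0 and limma-voom (limma 3.58.1) were alternatives. Log2 CPM used a prior count of 2. The profile was computed in Python as described in the results. Segments, predicted genes (54 members) and overlaps (123 members share span with a gene of at least 0.1 times their counts) were found from symbols and coordinates of the table. Lpar6, Cdh24, Ddhd1, Ube2e2, Ctsb, Acin1 and Ccdc66 are among the 123 members with such an overlap. Named genes were the 8 largest called rises and falls per comparison without overlap between libraries, the 3 smallest adjusted p per role list, and the 2 best expressed members per bin, leaving out predicted genes, with some left out for length. Supt16, Prmt5, Oxa1l, Hnrnpc, Tmem254a, Tmem254b, Tmem254c, Trim13 and Blk were described for their position or after their values were seen. The tests were tested on simulated counts. Libraries held 42985130 to 47667663 counts, and the counts of every pair of replicates differed beyond sampling noise.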

Additional observations from a re-analysis of the deposited data

Results flagged for a closer look

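In 8 sets of levels, 1 library lay far from the others of its group (gap to the nearest library as a share of the range of 4 libraries, in parentheses). About 5% of the 119 sets examined would be picked out by chance. Among the WT libraries these were Atxn7 (26.4, 27.4, 28.7 and 43.6 CPM, 0.865), Mir17hg (36.9, 40.3, 40.4 and 40.6 CPM, 0.918), Psmc6 (108, 108, 106 and 92.4 CPM, 0.869) and Rpp14 (21, 21, 17 and 20.8 CPM, 0.945), each with a different library or direction and a narrow range in 3 of the 4.

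Among the Sca1-Lmo2 libraries they were Cdh24 (13.2, 7.8, 10.8 and 43.1 CPM, 0.848), Ctsb (263, 192, 258 and 270.2 CPM, 0.846), Pdhb (141, 143, 149 and 98.9 CPM, 0.851) and Tsc22d1 (3.81, 2.97, 3.34 and 11 CPM, 0.895). Replicate 4, which had the chromosome 14 median nearest 0, was the library apart in Cdh24, Pdhb and Tsc22d1, and replicate 2 in Ctsb.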

How the results depend on the processing

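Library totals in place of TMM gave medians of −0.35 (Rosa26-Lmo2+Sca1-Cre) and 0.35 (Rosa26-Lmo2+Mb1-Cre) and, in Sca1-Lmo2, a median of 0.19 and 49 called members (38 higher, 11 lower), and no filter on low counts gave −0.0337 in Rosa26-Lmo2+Sca1-Cre. Leaving out 1 library at a time gave 26 to 92, 40 to 94 and 66 to 171 called members (Rosa26-Lmo2+Sca1-Cre first, then Sca1-Lmo2, then Mb1-Cre), and medians of −0.0031 to 0.09941, 0.280 to 0.483 and 0.650 to 0.891. The replicate numbers did not pair the libraries, and the replicate block gave 8, 33 and 78 called members, with medians of 0.05, 0.37 and 0.75. Shares of all genes called under these settings are not given, so lower counts cannot be read as particular to the members. Summing Sca1-Lmo2 replicates 1 and 3, an alternative chosen after seeing the data, gave 47 called members, and 5 named gene results lost their call. Of 66 named gene results 40 lost their call under at least 1 alternative, 30 of them with the block, 0 with DESeq2 and 6 with limma-voom, and 0 changed sign. For Mb1-Cre these alternatives include fits with only 1 of its libraries, where replication is lost as well.

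The chromosome 14 median was 0.0781 in Rosa26-Lmo2+Sca1-Cre replicate 2 as a mean and −0.0637 in replicate 3 without centring. Centring within 10 classes of span, also added later, left the 5 highest at 0.51 to 0.92. Counts of shifted bins moved mostly where they were small. With 5 Mb bins they were 1 in WT replicate 2, 3 and 0 in Rosa26-Lmo2+Sca1-Cre replicates 2 and 3 and 5 in Sca1-Lmo2 replicate 2, and with 20 Mb bins 0 in Rosa26-Lmo2+Sca1-Cre replicate 3. With a shift of at least 0.2 they were 1 in WT replicates 3 and 4, 2 and 4 in Rosa26-Lmo2+Sca1-Cre replicates 1 and 2 and 5 and 2 in Sca1-Lmo2 replicates 2 and 4. With at least 0.5 they were 0 in WT replicate 1 and Rosa26-Lmo2+Sca1-Cre replicate 3, and 5, 1, 5 and 0 in Sca1-Lmo2 replicates 1 to 4. Without predicted genes they were 0, 1 and 1 in WT replicates 1, 2 and 4, 0 in Rosa26-Lmo2+Sca1-Cre replicate 3, and 1 and 0 in Sca1-Lmo2 replicates 2 and 4. By means they were 2 in WT replicate 1, 2 and 1 in Rosa26-Lmo2+Sca1-Cre replicates 2 and 3, and 4 and 0 in Sca1-Lmo2 replicates 2 and 4. The cause was not tested.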
